A study of Mus musculus with 18 samples.

Results

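The 10 genes described here encode chaperones and quality-control proteins of the endoplasmic reticulum (ER) that belong to the unfolded protein response: Hspa5, Hsp90b1, Dnajb11, Sdf2l1, Pdia4, Pdia6, Creld2, Manf, Herpud1 and Edem1. They were taken by gene symbol from a table of 19326 rows of mouse spleen RNA, in which all 10 had a row. All 10 also reached a mean of 1 FPKM in at least 1 group, the minimum for testing, and so were among the 12969 genes tested. FPKM divide the reads of a gene by the length of its transcript and the size of the library, so levels of different genes can be set side by side.

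Spleens came from ICR mice, an outbred stock, aged 10 weeks, and gave 18 libraries in 6 groups of 3. On a high fat diet (HFD) there were 4 groups. They received FMT after AOS (HFD+AOS-FMT), FMT after control (HFD+control-FMT), AOS itself at 10 mg/kg (HFD+AOS) or nothing further (HFD). The label of HFD+AOS-FMT also gives 10 mg/kg, without saying whether that was the dose of the donors. The other 2 groups were given AOS at 10 mg/kg without the diet (AOS) or were controls. AOS is read here as alginate oligosaccharide, a short product of a seaweed polysaccharide, and FMT as faecal microbiota transplantation; the labels spell out neither. The title of the series asks whether FMT after AOS offsets effects of the diet on the spleen. Libraries were numbered within groups, but no source used here says that they were separate animals, so p-values measure the spread between these libraries only.

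When unfolded proteins build up in the ER, the sensors IRE1, PERK and ATF6 pass a signal to the nucleus. The transcription factors XBP1, ATF6 and ATF4 then switch on genes for folding, for export of damaged proteins to the cytosol and for secretion. In the spleen the pathway is best known from plasma cells, whose output of antibody needs XBP1 and a large ER. XBP1 and ATF6 can act through the ER stress response element (ERSE) and its shorter form ERSE-II near the start of a gene.

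Promoter stretches with such an element are shown because they were found in most of the genes that had a promoter window. The genes were chosen as members of the response that acts through such elements, so the matches are not independent of that choice. RefSeq windows from 250 bases before to 50 after the gene start (GRCm38.p6) were found for 9 of the 10 genes, all but Manf. The letters searched, on both strands, were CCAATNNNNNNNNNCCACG for ERSE, ATTGGNCCACG for ERSE-II and TGACGTGG for the XBP1-type element UPRE. Each line below is 30 bases read 5′ to 3′ on the strand of the gene, with the match in capitals.
Hspa5, chr2:34772020-34772049, plus strand: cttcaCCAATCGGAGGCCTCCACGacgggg
Hsp90b1, chr10:86705632-86705661, minus strand: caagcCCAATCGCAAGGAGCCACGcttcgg
Hsp90b1, chr10:86705527-86705556, minus strand, match on the opposite strand: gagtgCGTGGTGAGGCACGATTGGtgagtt
Pdia6, chr12:17266486-17266515, plus strand: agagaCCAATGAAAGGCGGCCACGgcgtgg
Creld2, chr15:88819515-88819544, plus strand, match on the opposite strand: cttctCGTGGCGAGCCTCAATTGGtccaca
Herpud1, chr8:94386368-94386397, plus strand, ERSE-II: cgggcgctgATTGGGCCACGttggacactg
Dnajb11, chr16:22857843-22857872, plus strand, ERSE-II: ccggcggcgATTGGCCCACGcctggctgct

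An ERSE or ERSE-II match was present in 6 of the 9 windows, against 51 of 32851 windows of all genes, or 0.155%. Hspa5, Hsp90b1, Pdia6 and Creld2 held ERSE, which 0.119% of all windows hold. Hsp90b1 held it on each strand, starting 212 and 107 bases before the gene start. Herpud1 and Dnajb11 held ERSE-II, which 0.0365% of windows hold. The Hspa5 element began 65 bases before the RefSeq start, and that of Dnajb11 began 8 bases after it. RefSeq starts can differ from the GENCODE starts of the gene bodies given below. The GENCODE body of Hspa5 starts at chr2:34771970, before its printed stretch. The Pdia4 window, chr6:47813463-47813762, lies wholly upstream of the GENCODE body of Pdia4. No match lay in the windows of Pdia4, Edem1 and Sdf2l1, and none of the 9 held UPRE, which 0.676% of all windows hold. A match describes the letters and says nothing about binding of a factor. Among other ER genes, 3 of 15 other folding genes (Calr, Canx and Dnajc3) and 2 of 8 other degradation genes (Derl3 and Syvn1) held ERSE. None of 15 ER import and export genes, 12 other sensors and factors or 8 plasma cell markers held ERSE or ERSE-II.

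Bodies of the 4 genes without a printed stretch lie, in GENCODE vM21 on GRCm38, at chr6:108828641-108859356 (Edem1), chr6:47796141-47813430 (Pdia4), chr16:17130138-17132383 (Sdf2l1) and chr9:106838312-106891979 (Manf). Other annotated genes overlap Dnajb11, Hsp90b1, Pdia4, Pdia6, Manf and Herpud1, among them the protein-coding Atp6v1c2 over Pdia6 and Dcaf1 and Rbm15b over Manf. Whether counting used strand is not given in the sources used here, so reads from overlapping genes cannot be told apart.

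The libraries carried the markers of spleen. The 7 B cell genes summed to between 1452 and 2973 FPKM, and no marker of the B cell, T cell, plasma cell or erythroid lists was at 0 in any library. Column totals ran from 627964 to 831448 FPKM; the number of reads is unknown. Haemoglobin genes took 10.8% to 34.4% of the total, most in control library 1. Neutrophil markers, which summed to between 372 and 1426 FPKM in every library outside the controls, summed to 15170, 4130 and 803 FPKM in control libraries 1, 2 and 3. Genes of the exocrine pancreas were present in every library, from 26.3 FPKM in control library 3 to 19850 FPKM in HFD+AOS library 2. In bulk tissue, fewer cells of a type and less RNA per cell cannot be told apart.

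Hsp90b1 (GRP94, the ER member of the HSP90 family) was the most abundant of the 10, with a mean of 437 FPKM over 18 libraries. Hspa5 (BiP, the ER HSP70 that also holds the sensors inactive) followed with a mean of 274.5 FPKM and Pdia6, a protein disulfide isomerase, with 111 FPKM. The other 7 averaged between 35.0 FPKM (Sdf2l1) and 73.4 FPKM (Herpud1). Creld2 varied most between libraries, by 3.51-fold from the lowest to the highest, and Dnajb11 least, by 1.69-fold.

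**Figure D1:**
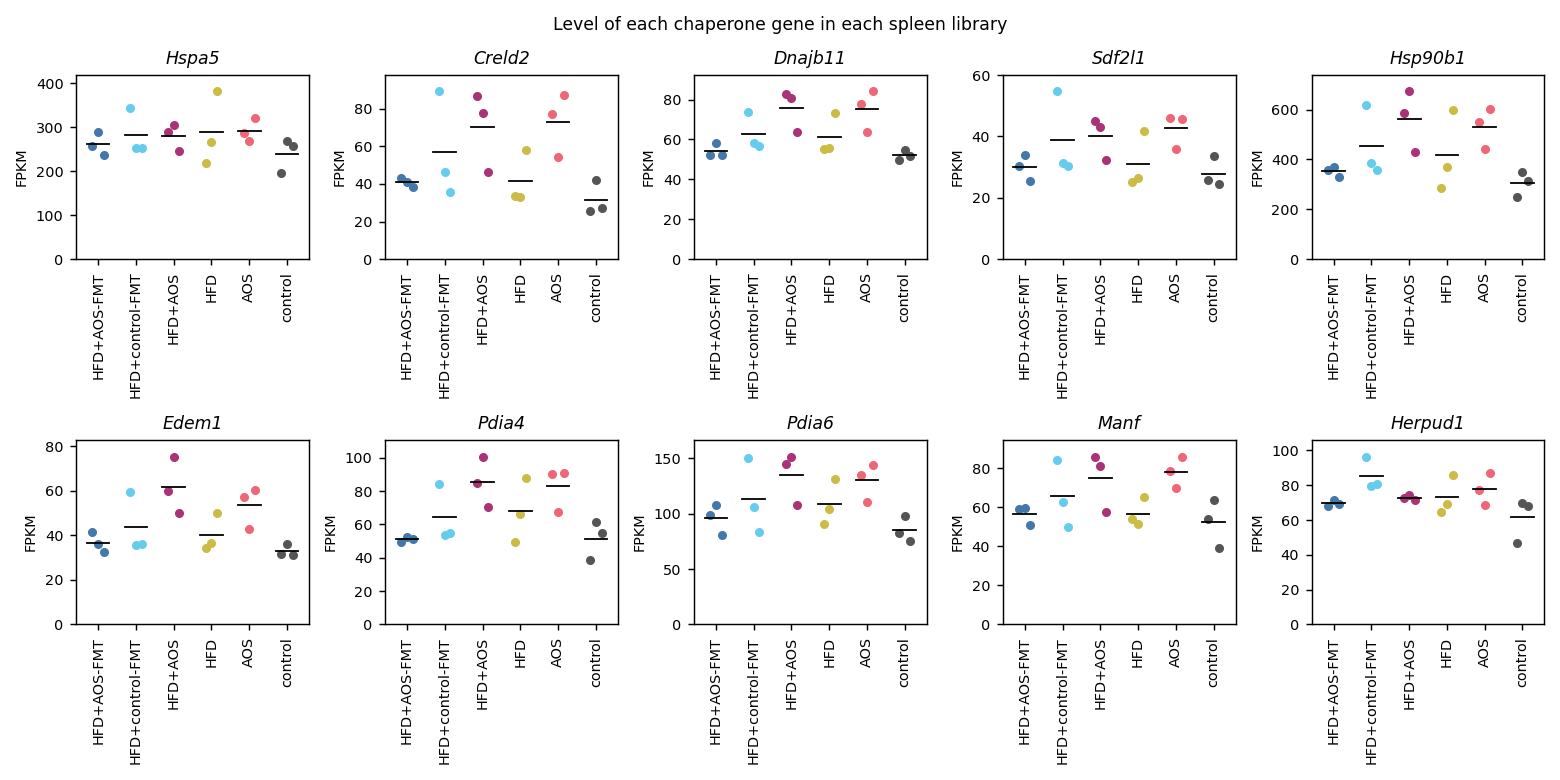
FPKM of each of the 10 genes in each library by group, with 3 points per group and a bar at the group mean. The controls have the lowest mean for 9 of the 10 genes, and HFD+control-FMT library 1 and HFD library 3 stand above the other 2 libraries of their group for every gene.

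Among the chaperones proper, Hspa5 differed least between groups. It was at 258, 289.8 and 238 FPKM in HFD+AOS-FMT, 343, 253 and 253 in HFD+control-FMT, 289, 306 and 245 in HFD+AOS, 219, 266 and 382 in HFD, 288, 269 and 320.2 in AOS, and 195, 269 and 257 in control libraries. The groups overlapped except for AOS against control, where the gap was under 1 FPKM, and group means accounted for 19.2% of its variance. Hsp90b1 was at 358, 369 and 329.7 FPKM in HFD+AOS-FMT, 617, 386 and 359 in HFD+control-FMT, 586, 674 and 431 in HFD+AOS, 286, 370.1 and 598 in HFD, 549, 440.3 and 603 in AOS, and 249.6, 349.7 and 314 in control libraries. All AOS and all HFD+AOS libraries lay above all controls for Hsp90b1, while HFD libraries overlapped with every other group.

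The partners of BiP varied more between groups than Hspa5 did. Dnajb11 (ERdj3, which hands unfolded proteins to BiP) was at 52.4, 58.3 and 52.1 FPKM in HFD+AOS-FMT, 74.0, 58.2 and 56.8 in HFD+control-FMT, 82.7, 80.9 and 63.6 in HFD+AOS, 55.0, 55.9 and 73.4 in HFD, 77.6, 63.8 and 84.2 in AOS, and 49.8, 54.5 and 51.7 in control libraries. Its control values were close together, and group means accounted for 65.5% of its variance, the highest share among the 10. Sdf2l1, which works in a complex with Dnajb11, ranged from 24.4 FPKM in control library 3 to 54.7 FPKM in HFD+control-FMT library 1.

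Both disulfide isomerases were highest in HFD+AOS library 2, Pdia4 at 101 FPKM and Pdia6 at 152 FPKM. Pdia4 was lowest in control library 1 (38.4 FPKM) and Pdia6 in control library 3 (75.4 FPKM). Pdia4 was the one gene whose lowest group mean was not in the controls: it averaged 51.2 ± 1.46 FPKM in HFD+AOS-FMT and 51.5 ± 11.8 FPKM in control libraries (SD, n = 3 each), a difference within their spread.

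Creld2, an ER protein reported to act as a disulfide isomerase, and Manf, a secreted protein that binds BiP, are both induced by ER stress. Creld2 was at 43.2, 41.2 and 38.3 FPKM in HFD+AOS-FMT, 89.3, 46.5 and 35.7 in HFD+control-FMT, 86.7, 78.0 and 46.6 in HFD+AOS, 33.8, 33.2 and 58.3 in HFD, 77.0, 54.3 and 87.6 in AOS, and 25.5, 42.3 and 27.1 in control libraries. The AOS and HFD+AOS values lay above every control value, and the 3 HFD+AOS-FMT values lay within the span of the HFD libraries. Manf ran from 39.3 FPKM in control library 3 to 85.8 FPKM in HFD+AOS library 1 and AOS library 3.

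Herpud1 and Edem1 serve ER-associated degradation, in which misfolded proteins are pulled out of the ER and destroyed. Herpud1, a membrane scaffold of the degradation machinery, was at 68.0, 71.7 and 69.2 FPKM in HFD+AOS-FMT, 96.5, 79.5 and 80.8 in HFD+control-FMT, 72.5, 74.4 and 71.8 in HFD+AOS, 64.7, 69.0 and 85.9 in HFD, 77.3, 68.6 and 87.2 in AOS, and 46.8, 69.6 and 68.2 in control libraries. It was the one gene of the 10 with its highest group mean in HFD+control-FMT, and control library 1 lay far below the other controls. Edem1, a mannosidase-like protein that marks misfolded glycoproteins for degradation, was at 41.5, 36.0 and 32.4 FPKM in HFD+AOS-FMT, 59.5, 35.9 and 36.1 in HFD+control-FMT, 59.8, 75.4 and 50.0 in HFD+AOS, 34.1, 36.6 and 49.9 in HFD, 57.1, 42.9 and 60.4 in AOS, and 31.5, 36.3 and 31.0 in control libraries. Every HFD+AOS value of Edem1 lay above every HFD and every control value. The gap to HFD was very small, between 49.96 FPKM in HFD+AOS library 3 and 49.86 FPKM in HFD library 3.

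Among all comparisons, the one call among the 10 genes was made in mice given both the diet and AOS, set against controls. Edem1 rose to 61.7 ± 12.8 FPKM in HFD+AOS, against 32.9 ± 2.93 FPKM in control libraries (SD, n = 3 each), a log2 fold change of 0.87 with a standard error of 0.20 (limma, adjusted p = 0.0398). It was the single gene of the 10 that passed an adjusted p of 0.05, where 2.09% of all genes passed. The other 9 were also higher by estimate, as were 60.2% of all genes, with log2 fold changes of 0.23 (Hspa5) to 1.12 (Creld2) and adjusted p of 0.0578 (Dnajb11) to 0.528 (Hspa5). The median over the 10 was 0.58, against 0.04 over all genes tested.

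In 7 of the 10 genes all HFD+AOS libraries lay above all control libraries, which held for 12.4% of all genes. An unadjusted p under 0.05 with a higher estimate was reached by 8 of the 10, against 13% of all genes; the exceptions were Hspa5 and Herpud1. Dnajb11 averaged 75.7 ± 10.6 FPKM in HFD+AOS and 52.0 ± 2.38 FPKM in control libraries (log2 fold change 0.52 ± 0.14 SE). Hsp90b1 averaged 564 ± 123 FPKM in HFD+AOS and 305 ± 50.8 FPKM in control libraries (0.88 ± 0.25), and Creld2 70.4 ± 21.1 FPKM in HFD+AOS and 31.6 ± 9.29 FPKM in control libraries (1.12 ± 0.33).

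The call of Edem1 was not stable. With limma it was lost without the filter on low values (adjusted p = 0.0593), after scaling by median ratios (0.0666), in a fit of the 6 libraries alone (0.150) and in 9 of the 18 fits that left out 1 library, among them HFD+AOS library 2 (log2 fold change 0.72, adjusted p = 0.169) and control library 1 (0.84, adjusted p = 0.126). Over those 18 fits its log2 fold change was 0.72 to 1.01. Dnajb11, Hsp90b1 or Creld2 joined it in 5 of them, for up to 3 genes called.

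Under AOS without the diet the same 10 genes were all higher than in controls by estimate, as were 62.4% of all genes, but none passed. With limma, 0 of the 10 and 0% of all genes reached an adjusted p of 0.05. An unadjusted p under 0.05 with a higher estimate was reached by 9 of the 10, all but Hspa5, against 10.2% of all genes. All AOS libraries lay above all control libraries for 9 of the 10, all but Herpud1, against 11.7% of all genes. The median log2 fold change was 0.60, against 0.05 over all genes tested, and adjusted p ran from 0.135 (Dnajb11) to 0.464 (Hspa5).

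Creld2 had the largest estimate, averaging 73.0 ± 17.0 FPKM in AOS and 31.6 ± 9.29 FPKM in control libraries (SD, n = 3 each; log2 fold change 1.19 ± 0.33 SE, limma adjusted p = 0.146). Hsp90b1 averaged 531 ± 82.6 FPKM in AOS and 305 ± 50.8 FPKM in control libraries (0.80 ± 0.25, adjusted p = 0.184). Pdia4, Edem1, Pdia6, Sdf2l1, Manf and Dnajb11 had estimates of 0.69 down to 0.51, and Herpud1 and Hspa5 of 0.35 and 0.29. Without control library 1 the estimate of Herpud1 was 0.16. This comparison and that of HFD+AOS share the 3 control libraries, so their values are not independent.

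**Figure D2:**
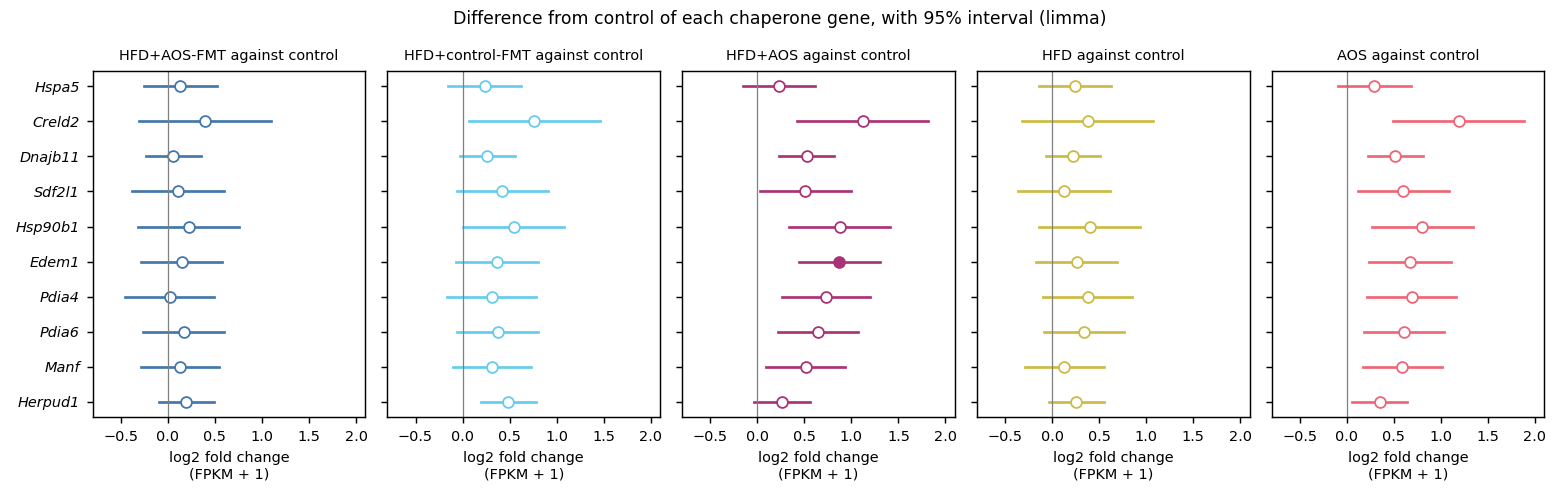
Log2 fold change on the log2(FPKM + 1) scale of each gene in each group against control, with 95% intervals from limma; a filled point marks an adjusted p under 0.05, reached by Edem1 in HFD+AOS alone. Intervals lie wholly above 0 for 9 genes in AOS, 8 in HFD+AOS and 3 in HFD+control-FMT, and for none in HFD or HFD+AOS-FMT.

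On the diet alone, none of the 10 genes was told apart from control, which does not show that they were unchanged. The limma intervals of the log2 fold change were wide. They ran from −0.32 to 1.075 for Creld2, −0.13 to 0.94 for Hsp90b1 and −0.09 to 0.85 for Pdia4. With limma, 0 of 10 were called in HFD against control, where 2.75% of all genes were, and 0 had an unadjusted p under 0.05, against 28.6% of all genes. All 10 estimates were higher, as were 68.5% over all genes, from 0.13 (Sdf2l1) to 0.40 (Hsp90b1). The median was 0.26, against 0.10 over all genes. Both fell with scaling by median ratios, to 0.15 for the 10 and 0.00 for all genes. HFD library 3 stood above the other 2 HFD libraries in all 10 genes; without it the median was 0.11, and without HFD library 1 it was 0.40.

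Adding AOS to the diet gave higher estimates for 9 of the 10 genes relative to HFD, against 41.9% of all genes, with 0 called by limma, as for 0% of all genes. Creld2 (0.74 ± 0.33 SE), Edem1 (0.61 ± 0.20) and Dnajb11 (0.30 ± 0.14) had an unadjusted p under 0.05 on the log2 scale, against 15% of all genes, and adjusted p of 0.314, 0.225 and 0.324. Edem1 averaged 61.7 ± 12.8 FPKM in HFD+AOS and 40.2 ± 8.48 FPKM in HFD libraries, without overlap, as for 6.42% of all genes. Its lowest HFD+AOS value was 49.96 FPKM and its highest HFD value 49.86 FPKM. Hspa5 and Herpud1 were at −0.01 and 0.00, Hspa5 at 0.03 after scaling by median ratios. The median was 0.37, against −0.03 over all genes, and ran from 0.23 without HFD library 1 to 0.52 without HFD library 3. Whether AOS acted differently on the 2 diets was tested by an interaction term, which reached adjusted p of 0.389 to 0.921 (limma) with 0 of 10 called, as for 0% of all genes, and 0 of 10 at an unadjusted p under 0.05, against 15.9% of all genes. The 10 interaction estimates were all negative (Edem1 turned to 0.04 after scaling by median ratios), where 34.8% of all genes were positive, with a median of −0.30 that was −0.10 without HFD library 3 and −0.18 without control library 1. HFD+AOS and AOS libraries differed by a median of −0.03, which ran from −0.11 without AOS library 2 to 0.15 without HFD+AOS library 3, with 0 of 10 called and 0 at an unadjusted p under 0.05, against 0% and 5.34% of all genes.

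Of the transplant groups, HFD+AOS-FMT was not told apart from HFD or control in any of the 10 genes. Against control 10 of 10 estimates were higher, where 56.4% of all genes were, from 0.02 (Pdia4, −0.02 after scaling by median ratios) to 0.40 (Creld2), with a median of 0.14, 0 called and 0 at an unadjusted p under 0.05 (limma), against 0% and 11.6% of all genes. That median was 0.07 without control library 1 and 0.25 without control library 2. Against HFD the median was −0.11, again with 0 called and 0 at an unadjusted p under 0.05, against 0% and 13.6% of all genes, and it was 0.08 without HFD library 3 and −0.23 without HFD library 1. Sdf2l1, Manf and Herpud1 changed from below to above 0 after scaling, to at most 0.07. The spread within HFD+AOS-FMT differed by gene. Herpud1 averaged 69.6 ± 1.86 FPKM and Pdia6 95.9 ± 13.6 FPKM (SD, n = 3).

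HFD+control-FMT had higher estimates than control for all 10 genes, where 65.8% of all genes were higher, with a median of 0.37, against 0.08 over all genes. With limma 0 of 10 were called, where 5.13% of all genes were. Herpud1 came closest, at 85.6 ± 9.44 FPKM in HFD+control-FMT and 61.5 ± 12.8 FPKM in control libraries (log2 fold change 0.49 ± 0.14 SE, adjusted p = 0.0529). It passed with a minimum of 5 FPKM (adjusted p = 0.0476), with the replicate number as a block (0.0390) and in 4 of the 18 fits that left out 1 library. Its estimate was 0.30 without control library 1. Herpud1, Creld2 and Hsp90b1 had an unadjusted p under 0.05, against 26.9% of all genes, and 3 of 10 genes did not overlap, against 15.5% of all genes. HFD+control-FMT library 1 carried much of this: without it the median was 0.15.

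Against HFD, HFD+control-FMT had a median of 0.12, with 0 called and 0 at an unadjusted p under 0.05, against 0.0154% and 4.63% of all genes; without its library 1 the median was −0.09, and without HFD library 1 or 3 it was −0.02 or 0.27. Between the transplant groups all 10 estimates were lower in HFD+AOS-FMT than in HFD+control-FMT, where 34.7% of all genes were higher, with a median of −0.25 against −0.05 over all genes. With limma, 0 of 10 were called and 0 had an unadjusted p under 0.05, against 0.00771% and 10.5% of all genes. Pdia4 and Herpud1 did not overlap, as for 15.6% of all genes. Without HFD+control-FMT library 1 the median was −0.02. An F test over the 6 groups gave 0 calls among the 10 at adjusted p of 0.109 to 0.748, where 0.116% of all genes passed, and 6 of 10 had an unadjusted p under 0.05, against 22% of all genes.

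The 10 genes varied together from library to library. Over the 18 libraries the 45 pairs had Pearson r of 0.48 to 0.96 with a median of 0.87, and Spearman rho of 0.55 to 0.94. After group means were taken out, r was 0.34 to 0.96 with a median of 0.86. Over the 18 libraries Hsp90b1 and Pdia4 had the highest Pearson r, while Hsp90b1 and Pdia6 had the highest rho; Manf and Herpud1 had the lowest of both. These values are a description with no test, since the genes were picked as a pathway and share the libraries.

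AOS library 3 was among the 4 highest libraries for all 10 genes, and HFD+control-FMT library 1 and HFD+AOS library 2 for 8 each. Control library 1 was the lowest for 6 genes and control library 3 for the other 4. Libraries of 1 group could lie at both ends: HFD library 1 was among the 4 lowest for 7 genes and HFD library 3 among the 4 highest for 4.

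**Figure D3:**
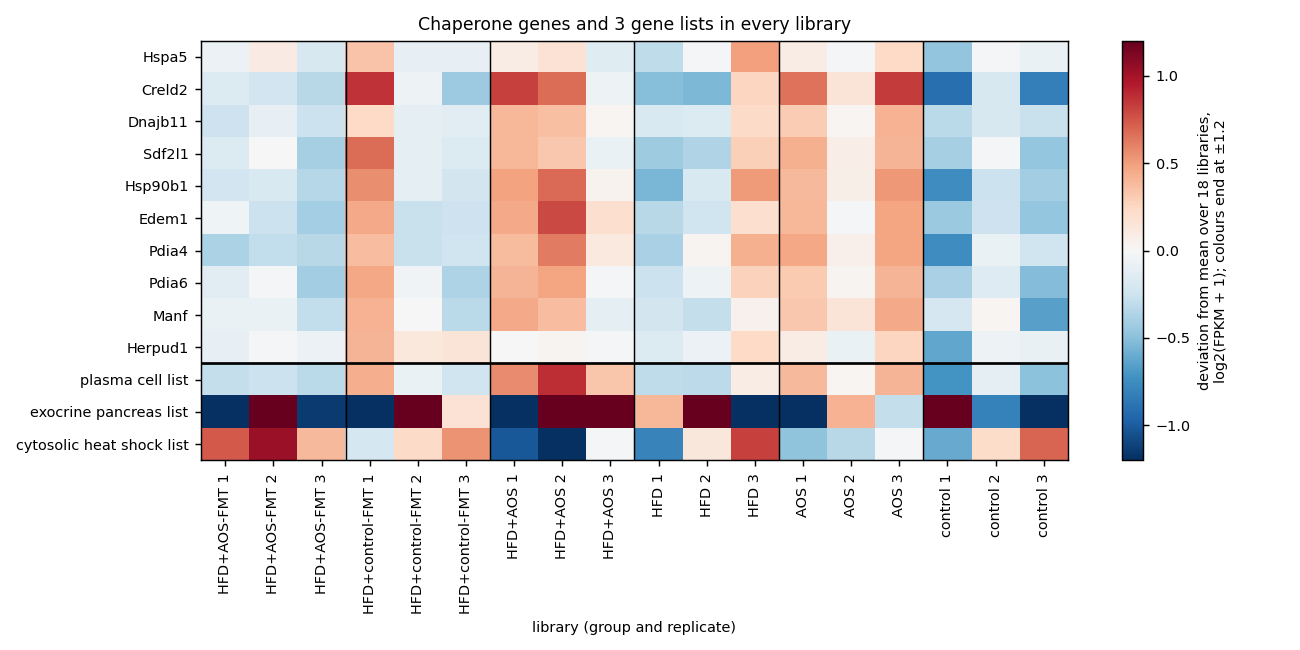
Deviation of each gene from its mean over 18 libraries, on the log2(FPKM + 1) scale, with the mean of the plasma cell, exocrine pancreas and cytosolic heat shock lists below; colours end at ±1.2. The chaperone rows and the plasma cell row share high libraries, such as AOS library 3, and low ones, such as control library 1. The heat shock list also holds the mitochondrial Hspd1 and Hspe1.

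Genes outside the 10 whose levels ran most like theirs were Selenos, Sec61a1, Erp44, Hspa13 and Mzb1, with a mean r with the 10 of 0.88, 0.88, 0.88, 0.88 and 0.87 over 18 libraries. Selenos belongs to the retrotranslocation machinery, Sec61a1 is the core of the translocation channel, Erp44 retains clients in the early secretory pathway, Hspa13 is a microsomal HSP70 relative, and Mzb1 is a BiP-associated protein of marginal zone B and plasma cells. The median of this mean r over 12956 genes was 0.07, and 54 genes reached 0.8.

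Plasma cell markers moved with the 10 genes. Each gene was set against the mean log2(FPKM + 1) of 9 plasma cell markers over 18 libraries, in a family of 20 relations that also held the exocrine pancreas list. Pearson r was 0.61 (Herpud1) to 0.96 (Edem1) and Spearman rho 0.70 to 0.94, with adjusted p of 3.33e-05 to 0.0127 for r and 3.33e-05 to 0.00286 for rho (100000 permutations, 1e-05 being the smallest p they can give before adjustment). Without HFD+AOS libraries 1 and 2, the farthest from the median, r was 0.67 to 0.93, and within groups it was 0.76 to 0.92. The permutations exchanged all 18 libraries regardless of group, so the p-values do not set shared group differences apart. The genes and lists were also chosen with earlier results of these data known, so the p-values do not rest on an independent choice. Nor is the plasma cell list separate from the ER pathway, since it holds the BiP-associated Mzb1. The r within groups was not tested. Mzb1, one of the 9 markers, was also among the 5 genes outside the 10 that ran most like them. For the 14 exocrine pancreas genes r was −0.26 to 0.05 (adjusted p of 0.560 to 0.938) and rho −0.21 to 0.09 (0.736 to 0.993). Without the 2 farthest libraries, HFD+AOS library 2 and control library 3, r was −0.51 to −0.33, and within groups −0.49 to −0.17, negative for all 10 genes; these 2 ranges were not tested. None of the markers in either list was at 0 in any library.

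**Figure D4:**
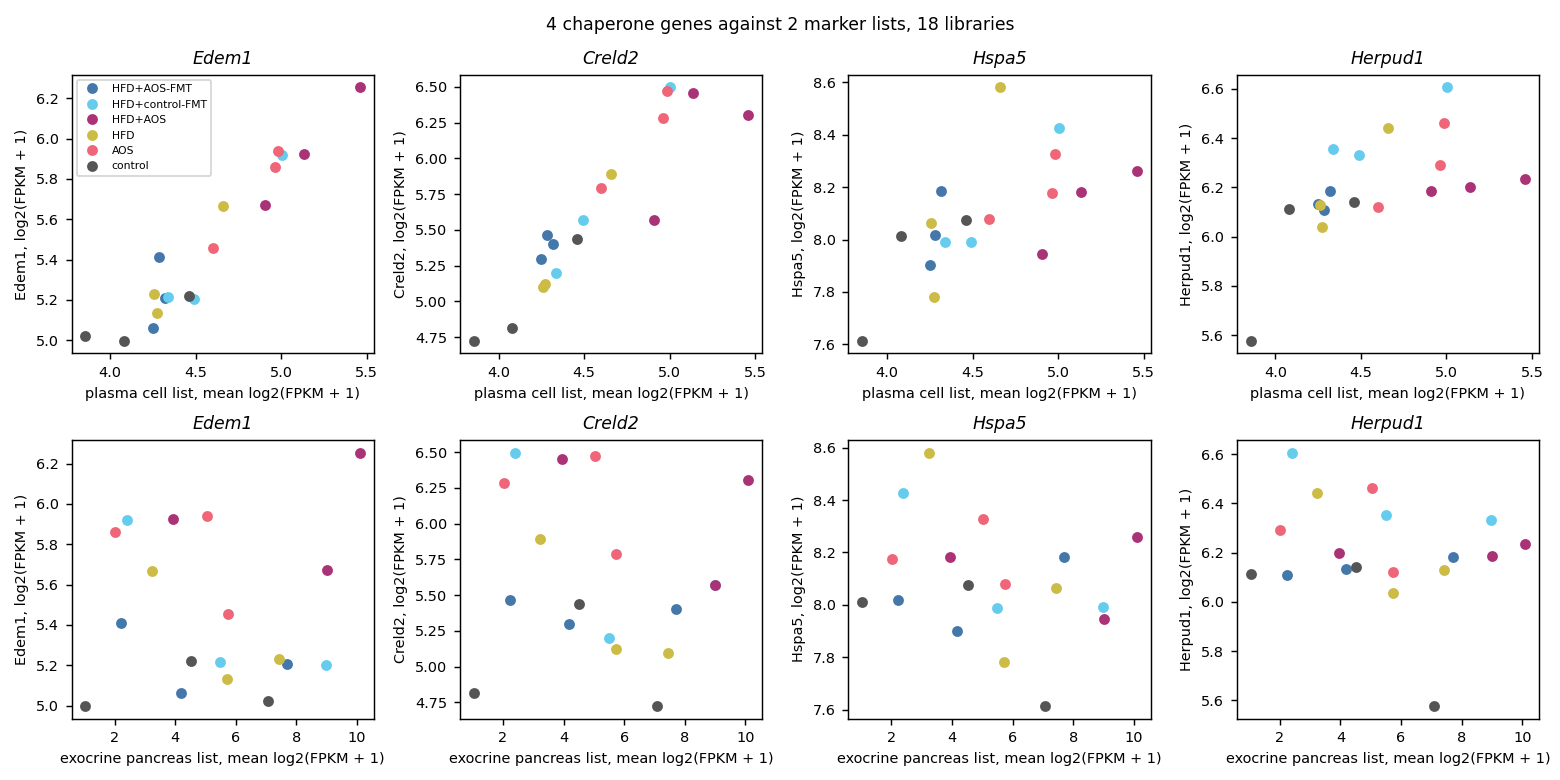
Edem1, Creld2, Hspa5 and Herpud1, log2(FPKM + 1), against the mean log2(FPKM + 1) of the plasma cell list (upper row) and the exocrine pancreas list (lower row), 1 point per library coloured by group. Against the plasma cell list r is 0.96, 0.92, 0.64 and 0.61; against the pancreas list no relation over the 18 libraries passes its test.

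The plasma cell list and the chaperones were both higher by estimate in AOS and HFD+AOS against control. Their medians differed in size in other comparisons, and no difference between the lists was tested. The list median was 0.35 in HFD+AOS against AOS, where that of the chaperones was −0.03. With 1 library left out the chaperone median there ran from −0.11 to 0.15. In HFD+AOS against HFD the medians were 0.84 and 0.37, both above 0. For the interaction term they were 0.05 and −0.30, the latter running from −0.42 to −0.10 with 1 library left out. In HFD+AOS against control the median log2 fold change of the plasma cell list was 1.15, against 0.04 over all genes. Of its 9 genes 8 rose (limma, adjusted p under 0.05), against 2.09% of all genes called. They were Sdc1 (syndecan 1, 1.30), Prdm1 (the plasma cell regulator BLIMP1, 1.15), Slamf7 (0.88), Creb3l2 (0.97), Tnfrsf17 (the BCMA receptor, 1.32), Mzb1 (1.27), Jchain (the joining chain of secreted antibody, 1.48) and Irf4 (0.65); Ell2 had 0.31. None of the 9 was called without HFD+AOS library 2, without control library 1 or in a fit of the 6 libraries alone. The 9 genes summed to between 785 and 929 FPKM in HFD+AOS-FMT, 820.2 and 1952 in HFD+control-FMT, 1476 and 2525 in HFD+AOS, 717 and 1163 in HFD, 1252 and 1557 in AOS, and 587 and 1108 in control libraries. HFD+AOS and AOS lay above all controls in this sum, as for Edem1, Creld2 and Hsp90b1. In AOS against control 0 of the 9 were called, as for 0% of all genes, and the list median was 0.71. An unadjusted p under 0.05 with a higher estimate was reached by 8 of the 9 (limma), against 10.2% of all genes. The part of the plasma cell genes in the chaperone differences was not tested.

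Markers of other cells moved with the control group too. In HFD+AOS against control 60.2% of all genes were higher by estimate. All 7 neutrophil genes had lower estimates there with an unadjusted p under 0.05 (limma), with a median of −2.61. All 7 erythroid genes had lower estimates too, with a median of −0.65. None of them was called. Of 14 pancreas genes 0 were called, with sums of 245.6, 19850 and 8735 FPKM in HFD+AOS and 2382, 384 and 26.3 FPKM in control libraries. The part of these cells in the chaperone differences was not tested. Leaving out control library 1, which had the most neutrophil and haemoglobin RNA, gave a chaperone median of 0.54 in HFD+AOS and 0.57 in AOS against control. The count of chaperone genes called in HFD+AOS against control was then 0. Control library 2, with 4130 FPKM of neutrophil markers, stayed in both fits, so they do not take the neutrophil difference away.

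The wider ER pathway was followed through 4 other lists in the same fit. As for the plasma cell list, their calls in HFD+AOS against control fell to 0 without HFD+AOS library 2, without control library 1 and in a fit of the 6 libraries alone. Over all genes 2.09% were called in that comparison. In HFD+AOS against control, 2 of 13 sensors and factors rose: Ern1, which encodes the sensor IRE1α, averaged 6.84 ± 1.04 FPKM in HFD+AOS and 3.44 ± 0.48 FPKM in control libraries (limma, adjusted p = 0.0174), and its target Xbp1 averaged 112 ± 22.2 FPKM in HFD+AOS and 55.3 ± 6.20 FPKM in control libraries (adjusted p = 0.0274). The median of that list was 0.29. The other 11 did not pass and lay on both sides of 0, with log2 fold changes from −0.74 (Ppp1r15a) to 0.88 (Nupr1). Eif2ak3, which encodes PERK, had 0.35. Of genes that act downstream of it, Nupr1, Chac1 and Trib3 had 0.88, 0.53 and 0.27. Ddit3, Atf4, Atf3, Asns and Ppp1r15a, also downstream, had −0.04, −0.25, −0.36, −0.36 and −0.74.

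In HFD+AOS against control, where 2.09% of all genes were called, 3 of 19 other folding genes rose. They were the disulfide isomerase relatives Txndc5 (1.02) and Txndc11 (0.99) and the prolyl isomerase Fkbp11 (1.47), with a list median of 0.31. Calr and Hyou1, abundant ER chaperones, had 0.17 and 0.39 and did not pass. Among 11 other degradation genes 6 rose, with a list median of 0.41. These were Derl3 (1.64) and Sel1l (0.71) of the retrotranslocation machinery, its ubiquitin ligase Syvn1 (0.41), the lectin Os9 (0.32), and the Edem1 relatives Edem2 (0.78) and Edem3 (0.51). Of 20 import and export genes 2 rose, Sec24d (0.66) of the COPII coat and Sec11c (0.69) of the signal peptidase, with a list median of 0.31.

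**Figure D5:**
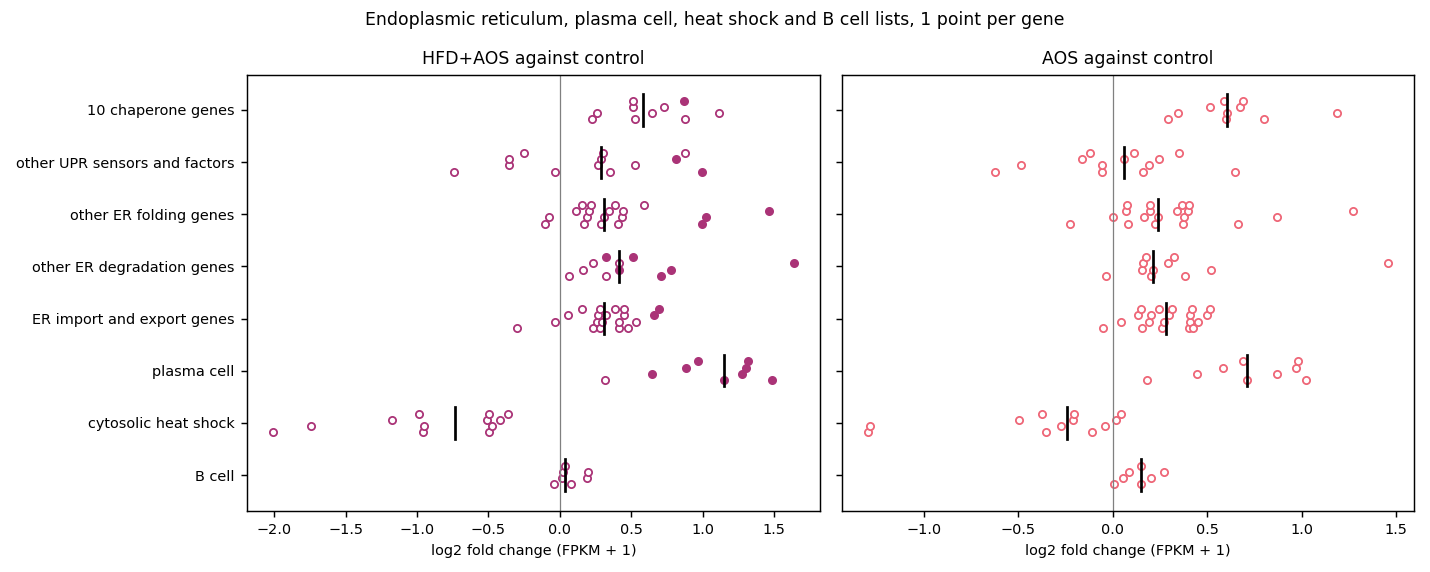
Log2 fold change, log2(FPKM + 1) scale, of each gene of 8 lists in HFD+AOS against control (left) and AOS against control (right); the bar is the list median and a filled point an adjusted p under 0.05. Filled points, all in HFD+AOS, number 8 in the plasma cell list, 6 in the other degradation list and 1 among the 10 chaperones.

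In AOS against control none of these 4 lists held a call (limma), with medians of 0.06 for sensors and factors, 0.24 for folding, 0.21 for degradation and 0.28 for import and export. At an unadjusted p under 0.05 they held 4 of 13, 9 of 19, 8 of 11 and 14 of 20 genes. These counts take either direction, while 10.2% of all genes passed with a higher estimate. In HFD+control-FMT against control, where 5.13% of all genes were called, Atf6b (0.32), a relative of the sensor ATF6, and Syvn1 (0.40) rose. Neither list held a call after scaling by median ratios, in a fit of the 6 libraries alone or without HFD+control-FMT library 1. Across the 18 libraries the import and export genes followed the 10 chaperones most closely, with a median of their mean r of 0.80, then folding with 0.73 and degradation with 0.72. Sensors and factors had 0.27, with Xbp1 highest at 0.86 and Ppp1r15a lowest at −0.43.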

How the data were processed

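The authors deposited a single table of 19326 gene symbols and 18 columns. Its values, deposited with 2 decimals, were read as FPKM from their range and sums; RPKM would look alike, and the depth is unknown. Reads were aligned with Bowtie 0.12.2, the build being mm10, per the submitters' processing notes; how reads were counted, and on which annotation, is not given in the sources used here. Columns were matched to groups by the code in their headers.

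Values were analysed as log2(FPKM + 1), a scale that understates the change of low genes. The 12969 genes that averaged 1 FPKM or more in any group entered 1 limma fit of all 18 libraries (limma 3.58.1 with trend and robust variance, statmod 1.5.0, R 4.3.3), which left 12 residual degrees of freedom. Benjamini-Hochberg adjustment ran over all genes tested, and a gene was called at 0.05. The fit was tried on simulated data, with noise drawn separately for each gene and with the same spread in every group. That setting does not cover genes that vary together or the dependence of calls on single libraries. Correlations used 100000 permutations of all 18 libraries regardless of group (scipy 1.17.1, Python 3.11.15). Motifs were searched in RefSeq promoter windows of 300 bases.

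Of the lists, all 10 chaperones were named in each comparison, and from other lists the called genes or, where none was called, at most the 2 with the smallest p; likeness named 5 genes. Eif2ak3, Chac1, Trib3, Nupr1, Atf4, Ddit3, Atf3, Asns, Ppp1r15a, Calr, Hyou1 and Ell2 were added after their values were seen. The genes and lists were chosen with earlier results of these data known. Alternatives were another pseudocount, other filters on low values, median-ratio scaling, the replicate number as a block, the 6 libraries of a comparison alone and each library left out.

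Libraries with the same number deviated together, with every pair's correlation over 0.1, in HFD+AOS against HFD (0.24, 0.27 and 0.19) and HFD+AOS against AOS (0.49, 0.39 and 0.32), and in no other comparison; the labels give no source for such a pairing.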

Additional observations from a re-analysis of the deposited data

How the results depend on the processing

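The count of chaperone genes called was 0 under each alternative in 10 of the 12 comparisons and tests, including HFD and AOS against control. In HFD+AOS against control it was 1, and 0 with no filter on low values, 0 after scaling by median ratios and 0 in a fit of the 6 libraries alone. With 1 library left out it ran from 0 to 3. It was 0 without HFD+AOS library 1 or 2, control library 1 or 2, AOS library 1, HFD library 2 or any 1 of the HFD+AOS-FMT libraries. Edem1 kept a higher estimate in all of these settings, and its adjusted p over all alternatives was 0.0180 to 0.169. In HFD+control-FMT against control the count was 0, and 1 (Herpud1) with a minimum of 5 FPKM, 1 with the replicate block, and 0 to 1 with 1 library left out, being 1 without HFD library 1 or 3 or control library 2 or 3. The replicate block gave no other change in calls among the 10, and 1 in HFD+AOS against control as before. It moved the count over all genes in HFD+AOS against HFD to 33, against 0 without it. Of 110 estimates for the 10 genes, 7 changed sign after scaling by median ratios and 0 with another pseudocount, filter or the block; with 1 library left out 64 of 1980 did, none of them at an unadjusted p under 0.05. Over all genes, HFD+AOS against control gave 271 calls, and 134 after scaling, 1 in the fit of 6 libraries and 0 to 1327 with 1 library left out. HFD against control gave 357 calls, and 0 after scaling, 1842 with the block and 0 to 3818 with 1 library left out, being 0 in 11 of those 18 fits. A lone pair left in a group by leaving out a library was taken to vary like the other groups. The causes were not tested. With 3 libraries a group and unknown depth, no counting error can be attached to single values.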

Other observations

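Heat shock genes, which answer unfolded proteins outside the ER, did not run with the ER chaperones. Their list is labelled cytosolic but also holds Hspd1 and Hspe1, which encode mitochondrial chaperonins. Its 12 genes had a median of the mean r with the 10 chaperones of −0.26 over 18 libraries, as a description. In HFD+AOS against HFD all 12 had lower estimates, with a median log2 fold change of −0.80, 0 called by limma and 7 at an unadjusted p under 0.05, against 15% of all genes. In HFD+AOS-FMT against HFD+control-FMT all 12 had higher estimates, with a median of 0.51, 0 called and 2 at an unadjusted p under 0.05, against 10.5% of all genes. The summed level was 3946 to 5015 FPKM in HFD+AOS-FMT, 2993 to 4063 in HFD+control-FMT, 1831 to 2804 in HFD+AOS, 2225 to 5543 in HFD, 2780 to 3447 in AOS and 2183 to 4612 in control libraries.

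Some T cell markers were called higher than in controls in HFD+control-FMT and HFD, where the chaperones had no call. All 6 were also higher by estimate in HFD+AOS, AOS and HFD+AOS-FMT against control, as were 60.2%, 62.4% and 56.4% of all genes. Their medians there were 0.40, 0.43 and 0.56, with 0 called in each, against 2.09%, 0% and 0% of all genes. In HFD+control-FMT against control 5 of 6 rose (limma, adjusted p under 0.05), where 5.13% of all genes were called. Among them was Cd4, at 67.7 ± 4.65 FPKM in HFD+control-FMT and 38.2 ± 11.2 FPKM in control libraries (SD, n = 3 each). In HFD against control 2 of 6 rose, Cd4 and Cd3g, where 2.75% of all genes were called. In the same comparisons 4 of 7 erythroid genes fell, with list medians of −1.11 in HFD+control-FMT and −1.19 in HFD, and 2 of 7 genes of dividing cells fell, Mki67 and Bub1b. These calls were not stable. In HFD against control all 3 lists had 0 calls after scaling by median ratios, with no filter, in a fit of the 6 libraries alone and, for each list, in 13 of 18 fits that left out 1 library. In HFD+control-FMT against control all 3 had 0 calls in a fit of the 6 libraries alone and without HFD+control-FMT library 1.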
